A study of Mus musculus with 6 samples.

Results

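Oxidative phosphorylation subunits were examined in cultured mouse mammary epithelial cells with and without the histone demethylase Jarid1b. They were chosen by gene symbol, as every probe named for an Nduf, Sdh, Uqcr, Cox4 to Cox8 or Atp5 gene. This rule took 135 of the 45281 probes on the array, for 87 of 19057 named genes. Testing was limited to probes detected (p under 0.05 against control beads) on 3 or more of the 6 arrays, leaving 104 probes and 77 genes. Of these, 70 are counted by symbol as subunit genes of the 5 complexes, among them Ndufs5-ps, a processed copy of a subunit gene. The other 7 are Ndufaf genes, named as assembly factors of complex I and counted apart. A gene is represented below by its brightest tested probe, and the brightness of different probes does not rank their transcripts.

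The cells were early-passage mammary epithelial cells, taken before confluence, from Jarid1b+/+ (WT) and Jarid1b-/- (KO) mice, and neither genotype carried any treatment. There were 3 cultures of each genotype, lettered A, B and C, and each gave 1 Illumina bead array. The number that follows the letter in the titles is the same for both cultures of pairs A and C and differs in pair B. The labels speak of pairs of cultures without saying that each came from its own animal, so the spread behind each p-value is that of these samples alone and may be technical. Strain, age and the construction of the allele are not stated by the labels.

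Oxidative phosphorylation is the last stage of respiration, run by protein complexes of the inner mitochondrial membrane. Complexes I and II take electrons from NADH and succinate, complexes III and IV pass them to oxygen, and complex V, the ATP synthase, uses the resulting proton gradient to make ATP. Most subunits are encoded in the nucleus and a few in mitochondrial DNA, and epithelial cells of the mammary gland draw on this ATP for growth and for secretion.

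Jarid1b, under its current symbol Kdm5b, read 7.07, 6.89 and 6.60 (log2 intensity) in WT cultures A, B and C and 4.42, 4.42 and 4.34 in KO. It was at least 4.94-fold lower in KO, with group means of 6.85 ± 0.24 and 4.39 ± 0.05 (SD, n = 3 each) and a limma adjusted p of 0.0155. No KO array had a KO signal above background, and the bound therefore sets each of them to its lowest detected signal. The other tested Kdm5b probes gave bounds of at least 4.51-fold (adjusted p = 0.0155) and at least 1.51-fold, the latter not called in limma (adjusted p = 0.924). The bounds leave out the spread of the groups, and each probe's place relative to the deletion is not stated by the labels. Luminal keratin and cadherin markers were measured for 5 of 6 listed genes, with Epcam not detected often enough, and basal markers for 6 of 6. Summed luminal signal was 23915 to 32369 (normalised intensity) in WT and 17461 to 27428 in KO, and the basal sum was 25921 to 31917 and 19473 to 29958. Both epithelial classes were therefore present on all arrays. Between 17033 and 18686 probes were detected per array, and with 3 arrays per genotype the precision is limited throughout.

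No oxidative phosphorylation probe passed the test between genotypes. None of the 104 reached an adjusted p under 0.05 in limma, where all had an adjusted p of 1, against 3 of 17920 probes on the array (0.0167%). At an unadjusted p under 0.05 there were 2 members, or 1.92%, both higher in KO, against a background of 3.03%. The 2 probes measured Ndufb9 and, with its dimmer probe, Ndufb6. Of all probes, 1.26% were higher and 1.77% lower at this threshold, and no member was lower. With a replicate block for the lettered pairs, 4 members had an unadjusted p under 0.05 against a background of 8.08%. They were Ndufb9, the dimmer probe of Ndufb6, Ndufs5-ps and Ndufaf5, all higher in KO, where 3.26% of all probes were higher and 4.82% lower. None of the 104 was called at an adjusted p under 0.05 in that limma fit (lowest 0.584), against 0.0223% of all probes.

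Subunit values nevertheless lay mostly above WT in the KO means, by small amounts. Of 70 subunit genes, 58 had a positive KO minus WT difference, beside 46% of all probes tested. The median difference was 0.17 (log2), with gene values from -0.24 to 0.48, and the median of all probes was -0.02. The median standard error of a subunit's difference was 0.21, and the difference exceeded its own standard error in 29 of 70 subunit genes (41.4%), beside 5266 of 17920 probes (29.4%). Across all settings tried the subunit median stayed positive, from 0.08 with each array scaled to its median to 0.29 without KO culture B. The count of 58 higher genes changed to 49 of 70 with the first of these, where the median of all probes was -0.10, and to 65 with the second. Members are genes of the same 6 arrays and are not replicates of the genotype.

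Subunit values differed between arrays within each genotype. Measured as the deviation of each subunit from its own mean over the 6 arrays, the median was -0.19 in WT A, -0.17 in WT B and 0.14 in WT C. In KO it was 0.23 in culture A, -0.17 in culture B and 0.21 in culture C. KO A, KO C and WT C were thus high together, and KO B sat with the other WT arrays, so the groups overlapped. WT C exceeded both other WT cultures in 60 of 70 subunit genes, against 46.6% of all probes. Its median excess over their mean, 0.26, was larger than the median difference between genotypes. The highest of the 6 values fell on KO C for 29 subunit genes and on KO A for 24.

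**Figure D1:**
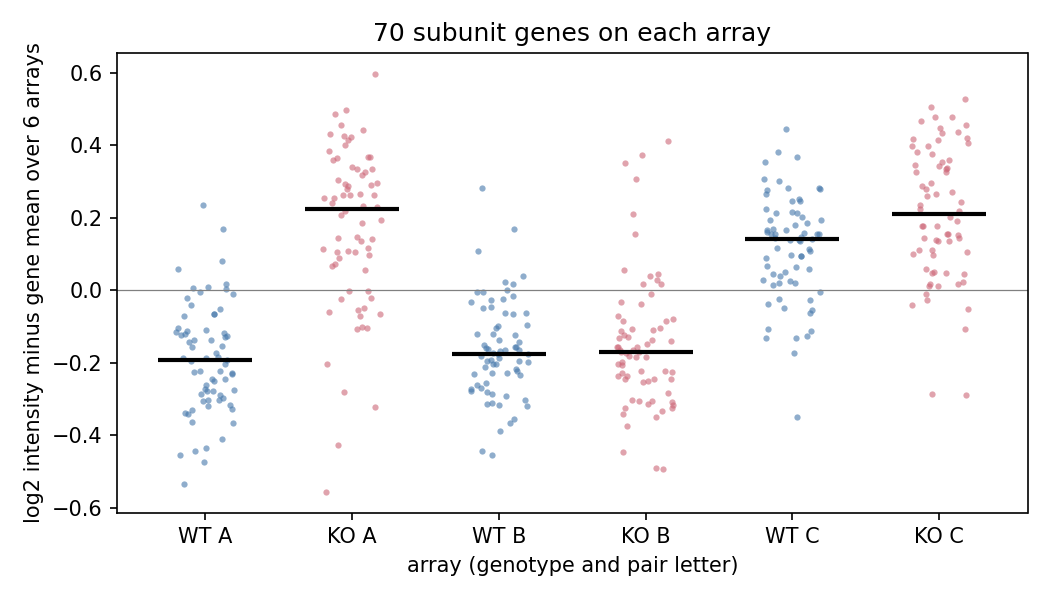
Log2 intensity of each of the 70 tested subunit genes minus its mean over the 6 arrays (vertical axis), by array (horizontal axis, genotype and pair letter), with 1 point per gene and a bar at the median. The medians of KO A, WT C and KO C lie between 0.14 and 0.23, and those of WT A, WT B and KO B between -0.19 and -0.17.

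Within pairs, the difference was mostly that of pair A. Pair A had a median KO minus WT difference of 0.43 over the subunits, pair B one of 0.01 and pair C one of 0.09, with 61, 37 and 50 of 70 genes higher in KO. All tested probes had medians of -0.02, -0.04 and -0.04, and 47.3%, 45.5% and 44.5% of them were higher in KO. Pair A held the largest of the 3 pair differences for 53 of 70 subunit genes, beside 34.9% of all probes. Without KO A the median over all 3 WT and the other 2 KO arrays was 0.11, and without WT A it was 0.10. Without WT C it was 0.28, and without KO B 0.29. Each pair holds 1 array per genotype, so the difference between pairs was not tested. The SD of the subunit median between arrays of the same genotype, pooled over both genotypes, was 0.21. The pair medians of 0.01 and 0.09 were smaller than this and that of pair A, 0.43, was larger. A pair median compares 2 single arrays, and this SD does not measure the spread of such a difference.

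Cell markers also differed between these arrays. No marker of any list below passed the test in limma. Proliferation genes, 9 of 11 listed with Mki67 and Ccnb1 not among the named probes, had pair medians (A, B, C) of 2.14, -0.30 and 0.69, the same order of pairs as the subunits. Their summed signal was 484, 673 and 1296 (normalised intensity) in WT A, B and C and 2742, 553 and 2157 in KO. Luminal markers differed by -0.82, -0.17 and -0.13, and fibroblast markers, 8 of 9 listed, by 0.83, -0.06 and 1.21. The fibroblast sum was 6462 to 7336 in WT and 6839 to 11328 in KO. The part of these markers in the subunit values was not tested. In such whole cultures fewer cells of a type and less RNA per cell cannot be told apart.

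**Figure D2:**
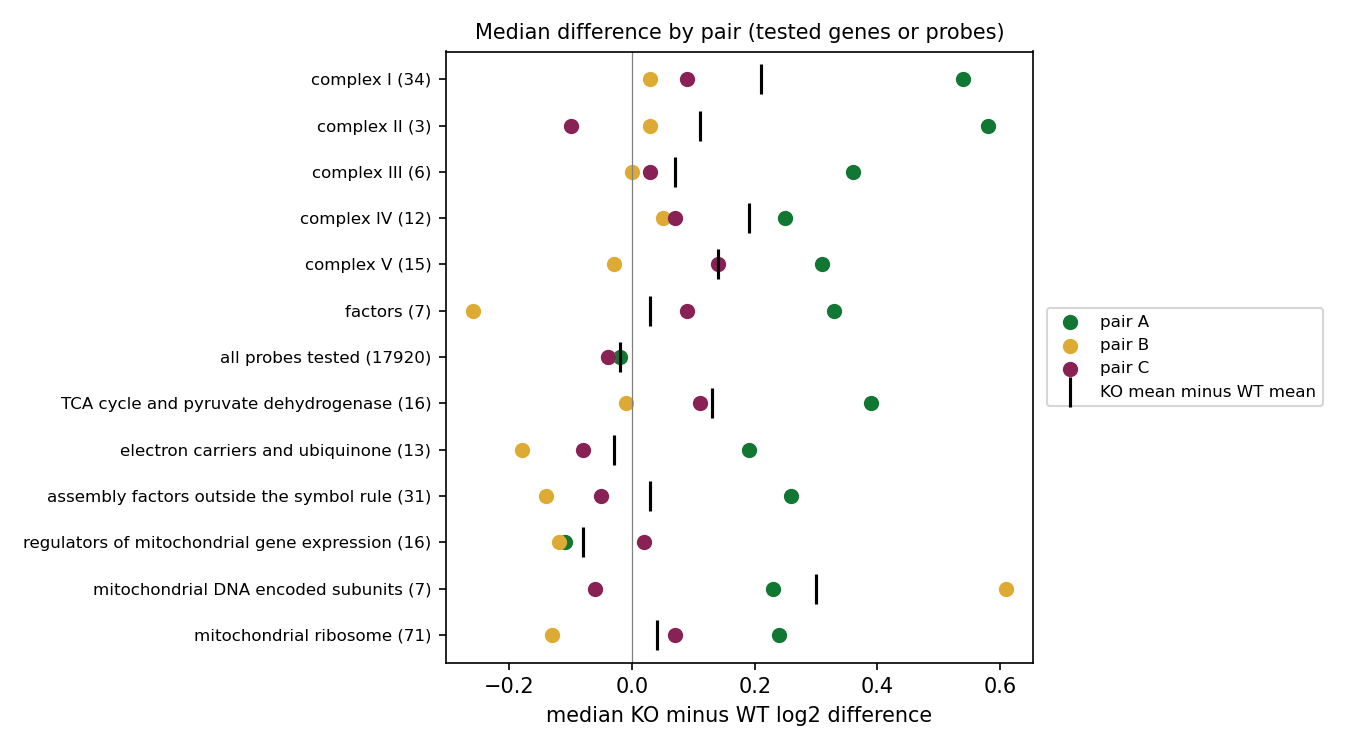
Median KO minus WT log2 difference (horizontal axis) over the tested genes of each complex or gene list, with the number tested in brackets (vertical axis). Coloured points are the pairs A, B and C, and the black tick is the median of KO mean minus WT mean. Pair A lies at 0.25 to 0.58 for complexes I to V, while pair B lies at -0.03 to 0.05.

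Most subunits were high or low on the same arrays. The promoters of these nuclear genes were also read, and a link between their motifs and the array values was not tested. A window of 250 bases before and 50 bases after the RefSeq start was found for 59 of the 70 subunit genes (GRCm38.p6). Letters of motifs named for known regulators of mitochondrial genes were searched on both strands. The NRF1 letters GCGCATGC were present in 10 subunit windows (16.9%) and in 3.05% of the windows of 27025 genes. The GABPA letters CCGGAAG were present in 15 (25.4%) against 9.93%, and the YY1 letters AAGATGGC in 10 (16.9%) against 3.19%. The ERR letters TNAAGGTCA were present in 2 (3.39%) against 1.43%, and CCAAT in 24 (40.7%) against 41.1%. The 27025 genes were not limited to those detected in these cultures, as the subunit genes were, so the 2 shares are not of like sets. A match is a description of the letters and is not a measured site.

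In each complex, the gene with the smallest unadjusted p among those with a window was taken. In complex I this was Ndufa11, because the genes with a smaller p, Ndufb9 among them, were without a window. The 250 bases before the start follow for 3 of the genes taken, chosen because these bases hold a match. Each is written 5′ to 3′ on the gene's strand, and capitals mark the NRF1, GABPA or CCAAT letters in either direction. They lie at chr17:56717512-56717761 (+) for Ndufa11, chr4:140961021-140961270 (+) for Sdhb and chr2:174464102-174464351 (-) for Atp5e.
Ndufa11: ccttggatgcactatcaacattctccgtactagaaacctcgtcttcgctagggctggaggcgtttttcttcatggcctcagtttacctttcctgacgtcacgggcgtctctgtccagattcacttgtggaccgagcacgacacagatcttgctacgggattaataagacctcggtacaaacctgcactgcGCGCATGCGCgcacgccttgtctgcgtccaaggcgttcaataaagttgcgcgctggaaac
Sdhb: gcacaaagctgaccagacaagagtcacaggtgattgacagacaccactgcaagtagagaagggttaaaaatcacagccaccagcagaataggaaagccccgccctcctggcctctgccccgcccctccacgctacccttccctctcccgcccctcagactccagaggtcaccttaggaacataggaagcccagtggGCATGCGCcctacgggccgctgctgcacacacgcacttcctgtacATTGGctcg
Atp5e: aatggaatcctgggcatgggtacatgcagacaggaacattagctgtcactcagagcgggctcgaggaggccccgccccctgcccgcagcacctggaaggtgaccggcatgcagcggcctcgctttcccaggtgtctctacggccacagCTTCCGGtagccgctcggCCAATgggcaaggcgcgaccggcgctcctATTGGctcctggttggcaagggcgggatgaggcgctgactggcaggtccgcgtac
In Ndufa11 the NRF1 letters occur on both strands, overlapping, from 60 bases before the start, and in Sdhb they begin 54 bases before it. Atp5e holds the GABPA letters on the reverse strand and CCAAT letters in both directions. Of the other 2 complexes, the chosen gene of complex III, Uqcrc1, has its NRF1 letters after the start, and the chosen gene of complex IV, Cox5a, has no match in its window.

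Complex I, which takes electrons from NADH, gave 34 of its 36 genes on the array, and 28 of these were higher in KO with a median of 0.21 (log2). The pair medians were 0.54, 0.03 and 0.09, and no gene passed the test. Omission of 1 culture moved the complex I median to between 0.08 (without WT A) and 0.34 (without KO B). Of its conserved core subunits, those encoded in the nucleus had 5 tested genes (Ndufs3, Ndufs7, Ndufs8, Ndufv1 and Ndufv2), all with positive differences and a median of 0.16. The 29 other genes, counted as accessory and including Ndufs5-ps and Ndufa4, had 23 positive differences and a median of 0.22. Core and accessory subunits were both led by pair A, with pair A medians of 0.57 and 0.52.

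Ndufb9, an accessory subunit of the membrane arm (chromosome 15), had the smallest unadjusted p of the complex. It read 5.71, 5.69 and 5.85 in WT A, B and C and 6.48, 6.0 and 6.16 in KO. All KO values lay above all WT values, a difference of 0.46 (SE 0.19, limma unadjusted p = 0.0412, adjusted p = 1). For dim probes the size depended on the background step, and for Ndufb9 it was 0.21 without background correction and 0.19 in the authors' value table. Ndufa11 (chromosome 17), a membrane arm subunit whose promoter is shown above, read 8.85, 8.94 and 9.63 in WT and 9.98, 9.07 and 9.83 in KO. Its difference of 0.48 (SE 0.32) was the largest of all tested members, but KO B lay inside the WT range and pair A alone differed by 1.12. The other pairs differed by 0.12 and 0.20. Ndufa2 read 10.54, 10.61 and 10.80 in WT and 11.08, 10.69 and 11.24 in KO, with KO B among the WT values and a difference of 0.35 (SE 0.20).

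The probe named Ndufs5-ps, a processed copy of the subunit gene Ndufs5 for which no probe is named, may share signal with its parent gene. It read 8.95, 9.01 and 9.34 in WT and 9.58, 9.23 and 9.77 in KO, higher in KO in each pair with a difference of 0.43 (SE 0.21). Ndufb6 was measured by 2 probes. The brighter read 10.60, 10.60 and 10.81 in WT and 11.25, 10.56 and 10.95 in KO, with overlapping groups and a difference of 0.25 (SE 0.22). The dimmer read 5.47, 5.65 and 5.52 in WT and 6.18, 5.70 and 6.17 in KO, where groups did not overlap and the difference was 0.47 (SE 0.19). The probes of Ndufb6 therefore gave the same sign but differed in size.

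A few complex I genes lay the other way. Ndufa6, an accessory subunit, read 11.56, 11.61 and 11.66 in WT and 11.18, 11.54 and 11.46 in KO. All KO values were below all WT values, a difference of -0.22 (SE 0.17). Ndufb11, the dimmest tested gene of the complex (chromosome X), read 5.06, 4.81 and 4.98 in WT and 4.27, 4.87 and 4.96 in KO, so that its difference of -0.24 (SE 0.23) rested on KO A, where it was not detected. Without background correction it was -0.07. Ndufa4, long listed with complex I and now regarded as a subunit of complex IV, was the brightest of the Nduf genes. It read 12.13, 12.01 and 12.29 in WT and 12.43, 11.76 and 12.18 in KO, a difference of -0.02 (SE 0.22) with overlapping groups. Ndufb4 and Ndufs1 were not detected often enough to be tested.

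**Figure D3:**
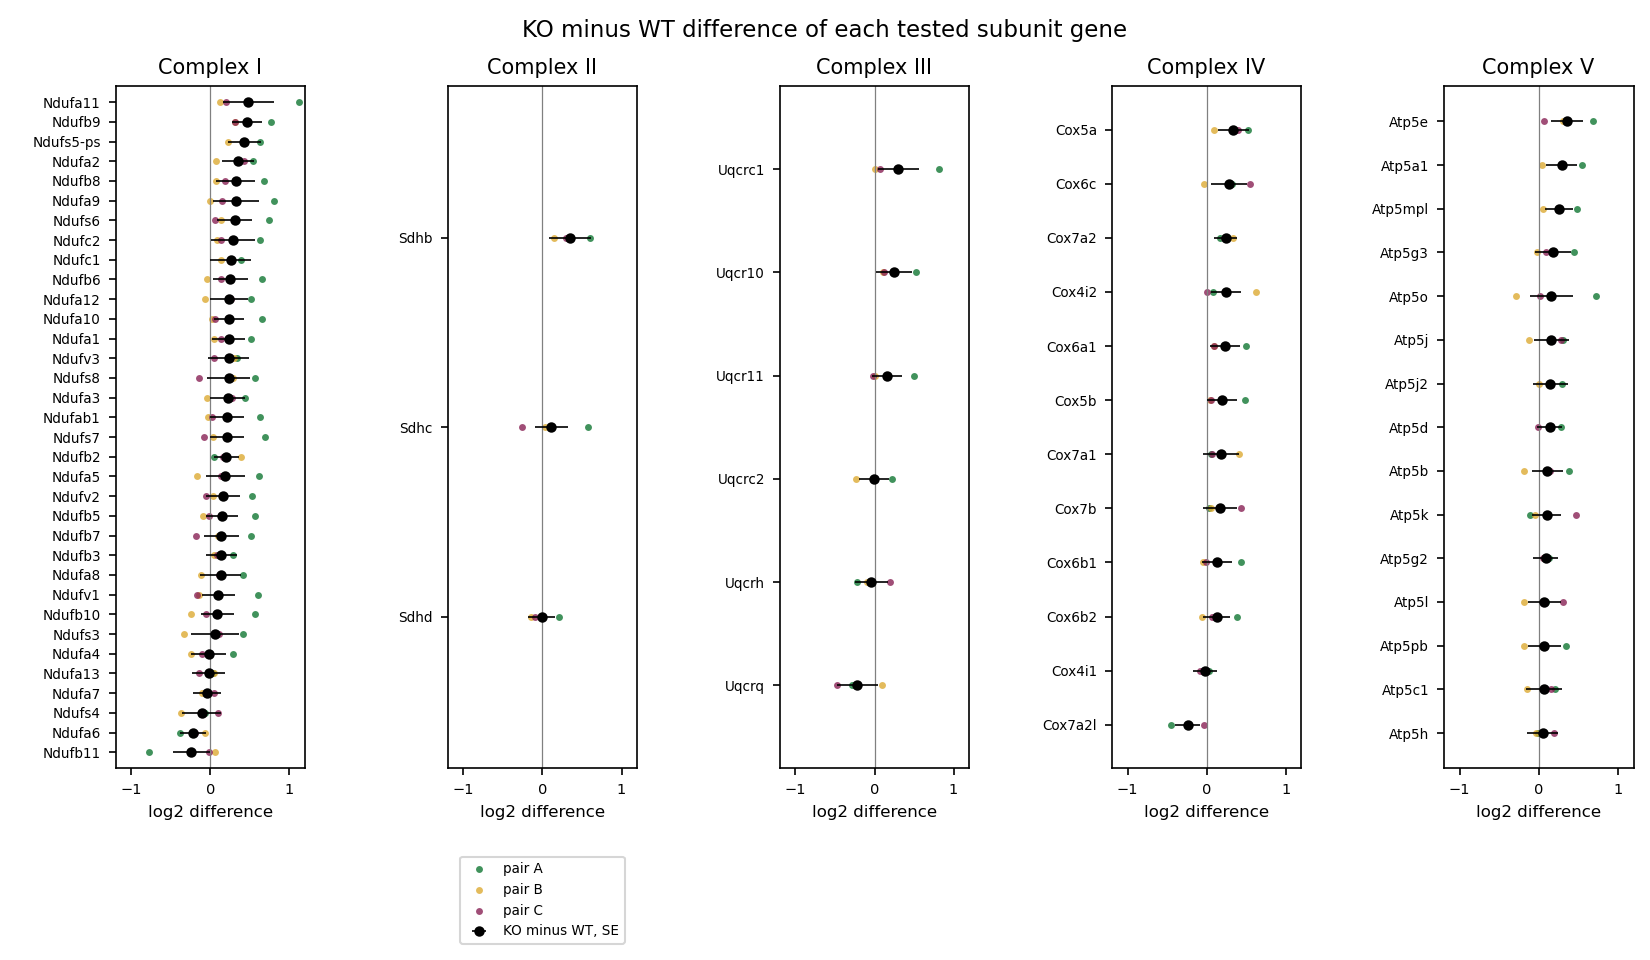
KO minus WT log2 difference (horizontal axis) of each tested subunit gene, by complex, with genes on the vertical axis ordered by size. Black points with bars are the difference of group means with its standard error, and coloured points are pairs A, B and C. In complex V all 15 differences are positive in the fit reported, from 0.05 to 0.36, and 3 of them exceed their standard error.

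Complex II, succinate dehydrogenase, which also belongs to the citrate cycle, had 3 of 4 genes tested, with a median difference of 0.11. The only probe of Sdha, its flavoprotein, was not detected on any array, which does not show that the transcript was absent. The complex II median turned to -0.02 with median scaling and also without WT culture A, and it reached 0.28 without WT C. Sdhb, the iron-sulfur subunit (chromosome 4), read 7.89, 7.68 and 8.30 in WT and 8.50, 7.83 and 8.60 in KO. It was higher in KO within each pair, by 0.60, 0.15 and 0.30, while the groups overlapped, and the difference was 0.35 (SE 0.27). The membrane anchors Sdhc and Sdhd differed by 0.11 (SE 0.21) and -0.01 (SE 0.17). Sdhc had opposite signs in pairs A and C, with differences of 0.58 and -0.26.

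Complex III, which passes electrons from ubiquinol to cytochrome c, gave 6 of 7 genes, 3 higher and 3 lower in KO, with a median of 0.07. That median was -0.03 with median scaling, 0.02 without KO C, 0.17 without WT C and 0.19 without KO B, and it rounded to 0 without WT A. The catalytic iron-sulfur subunit Uqcrfs1 was not detected with either of its probes. Uqcrc1, a core protein on the matrix side (chromosome 9), read 9.47, 9.67 and 10.19 in WT and 10.29, 9.68 and 10.25 in KO. KO B and WT B were nearly equal, pair A differed by 0.82, and the difference of group means was 0.30 (SE 0.26). Uqcr10 and Uqcr11, small membrane subunits, differed by 0.25 (SE 0.23) and 0.16 (SE 0.19). The hinge protein Uqcrh, the brightest of the complex, differed by -0.04 (SE 0.21). Uqcrq, the dimmest, read 7.25, 7.67 and 7.58 in WT and 6.96, 7.76 and 7.10 in KO, a difference of -0.22 (SE 0.26) with overlapping groups.

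Complex IV, cytochrome c oxidase, gave 12 of 16 genes, of which 10 were higher in KO, with a median of 0.19. The median was 0.11 without background correction, with the authors' value table and with median scaling. Its spread between arrays was the smallest of the 5 complexes, an SD of the median of 0.12. Pair medians were 0.25, 0.05 and 0.07. Cox4i1, the common form of a regulatory subunit and the brightest of the complex, read 12.18, 12.26 and 12.25 in WT and 12.22, 12.25 and 12.17 in KO. Its values were nearly flat, a difference of -0.02 (SE 0.15). Cox4i2, the isoform known from lung and induced by low oxygen, read 4.56, 4.41 and 4.74 in WT and 4.64, 5.04 and 4.74 in KO, near background. It was detected in 1 of 3 WT and 3 of 3 KO cultures, so it entered the test mainly through KO, and its difference was 0.24 (SE 0.19), or 0.06 without background correction.

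Cox5a, which binds a regulator on the matrix side (chromosome 9), read 11.12, 10.95 and 11.10 in WT and 11.66, 11.06 and 11.49 in KO. KO B lay among the WT values, and the difference was 0.34 (SE 0.20, limma unadjusted p = 0.134). Cox7a2, the general form of a small subunit, read 6.07, 5.99 and 6.12 in WT and 6.24, 6.34 and 6.34 in KO. Groups did not overlap and the SD was 0.06 in each, but the difference was 0.24 (SE 0.15) with an unadjusted p of 0.153, since limma draws each probe's variance toward that of all probes. Without background correction that difference was 0.12. Cox7a2l, a related protein that joins complexes III and IV into supercomplexes, read 9.50, 9.50 and 9.35 in WT and 9.05, 9.26 and 9.32 in KO. All KO values were below all WT values, with a difference of -0.24 (SE 0.16). Cox7a1, the heart and muscle form, read 6.98, 6.90 and 6.55 in WT and 7.04, 7.31 and 6.61 in KO, a difference of 0.18 (SE 0.23) with overlapping groups.

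The other isoform pairs gave no clearer difference. Cox6a1 and Cox6b1, the general forms, differed by 0.23 (SE 0.19) and 0.13 (SE 0.19), and Cox6b2, known from testis, by 0.13 (SE 0.17). Cox7b, the dimmest gene of the complex, was detected in 2 cultures of each genotype and differed by 0.17 (SE 0.22).

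**Figure D4:**
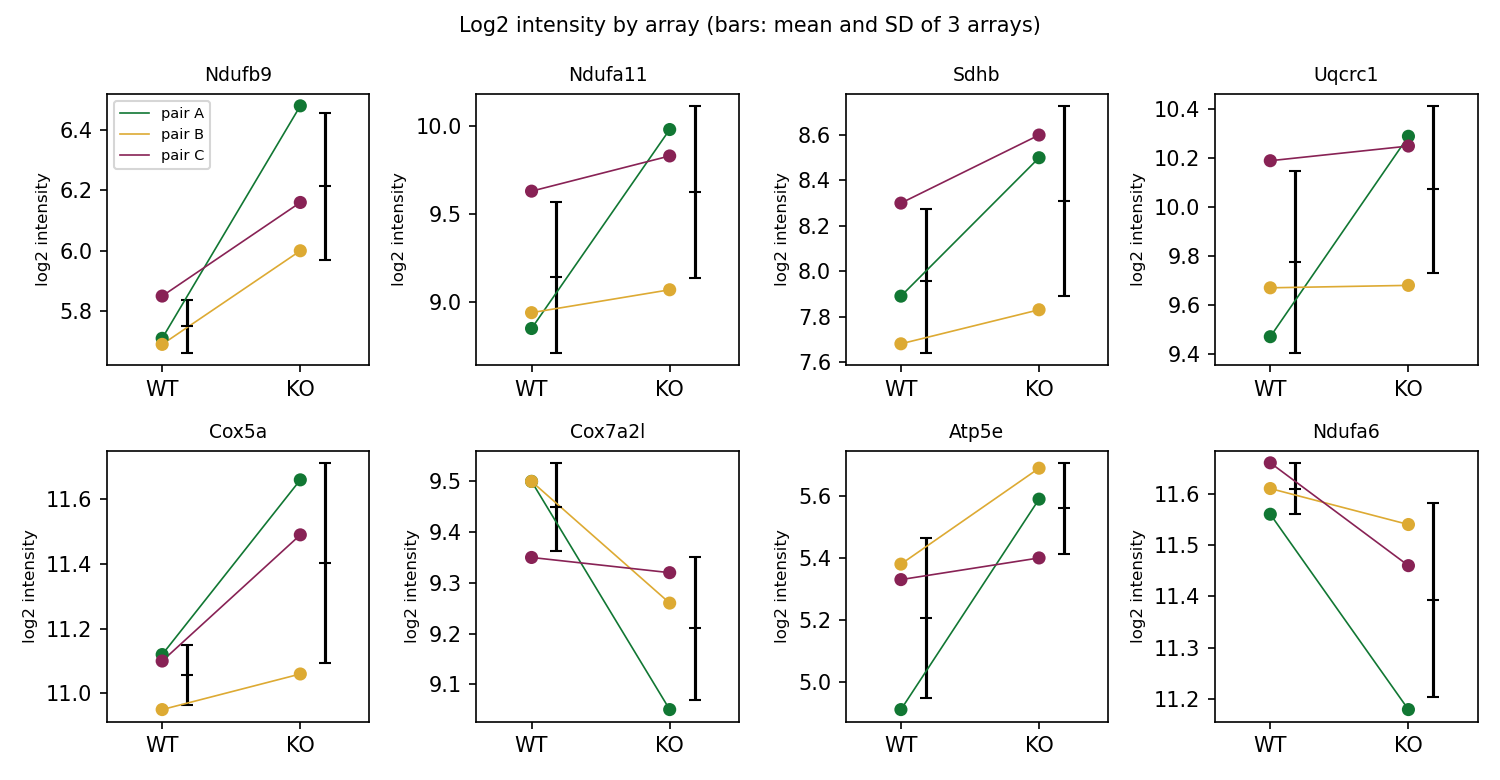
Log2 intensity (vertical axis) of 8 genes in WT and KO (horizontal axis), with 1 point per culture, lines joining the cultures of a pair and black bars giving mean and SD of 3 arrays. The axes do not start at 0. Ndufb9 is higher in KO in all pairs, from 5.69 to 5.85 in WT to 6.0 to 6.48 in KO, and Cox7a2l and Ndufa6 are lower in all pairs.

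Complex V, the ATP synthase, gave 15 of 16 genes, all with a positive KO minus WT difference, from 0.05 to 0.36 with a median of 0.14. No gene passed the test. With median scaling the complex V median was 0.04 and Atp5g2 turned negative. Not every gene was followed under that scaling, so the count of 15 positive differences holds for the fit reported. The 5 genes of the catalytic F1 head had a median of 0.14, the 4 of the peripheral stalk 0.11 and the 6 of the membrane part 0.12. Pair medians for the whole complex were 0.31, -0.03 and 0.14, and its median lay between 0.06 (without KO C) and 0.26 (without KO B) when 1 culture was omitted. Only Atp5e, the small epsilon subunit of the rotor (chromosome 2), had groups that did not overlap. It read 4.91, 5.38 and 5.33 in WT and 5.59, 5.69 and 5.40 in KO, a difference of 0.36 (SE 0.20), or 0.12 without background correction.

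Atp5b, the catalytic beta subunit and the brightest of the complex, read 13.56, 13.51 and 13.43 in WT and 13.94, 13.33 and 13.57 in KO. KO A was the highest and KO B the lowest of the 6, a difference of 0.11 (SE 0.20). Atp5a1, the alpha subunit, differed by 0.29 (SE 0.20) and Atp5d, the delta subunit, by 0.14 (SE 0.16). Atp5o, the stalk protein that confers oligomycin sensitivity, ranged most between pairs, at 0.73, -0.29 and 0.02. Of the ring subunits c, Atp5g2 differed by 0.09 (SE 0.16) and Atp5g3 by 0.18 (SE 0.23), and no probe was named for Atp5g1. Atp5k, the dimmest, was detected in 2 cultures of each genotype and differed by 0.10 (SE 0.18). The probes of Atp5mpl, a small membrane subunit, disagreed in sign, with 0.26 (SE 0.18) for the brighter and -0.22 (SE 0.19) for the dimmer one.

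Counted over probes, 6 of 104 members were higher in KO with no overlap of the groups, against 2.84% of all probes, and 3 were lower, against 5.3%. The 6 were Ndufb9, Ndufb2, the dimmer probes of Ndufa3 and Ndufb6, Cox7a2 and Atp5e, and the 3 were Ndufa6, Cox7a2l and Ndufaf1. Higher in all 3 pairs were 39 of the 104 probes, where 12% of all probes were, and lower in all 3 were 5, where 19.3% were. This count includes pairs B and C, where the median differences were small. Of 22 genes with several tested probes, 3 had probes that differed in sign (Atp5mpl, Atp5pb and Ndufs4).

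The 7 tested Ndufaf genes, which assemble complex I or act nearby, had a median difference of 0.03, from -0.33 to 0.40, with 4 higher. Ndufaf5 read 5.78, 5.65 and 6.04 in WT and 6.27, 5.94 and 6.48 in KO, higher in each pair with a difference of 0.40 (SE 0.21), or 0.18 without background correction. Ndufaf1 read 6.93, 6.97 and 6.86 in WT and 6.79, 6.56 and 6.78 in KO, a difference of -0.21 (SE 0.16) without overlap. Ndufaf8 differed by 0.23 (SE 0.20), Ndufaf7 by -0.33 (SE 0.30) and Ndufaf2 by 0.19 (SE 0.30). Ndufaf4 read 9.67, 9.34 and 7.84 in WT and 9.31, 9.08 and 8.42 in KO, so its spread followed pair C and its difference was -0.01 (SE 0.49). Ndufaf3 was near background in all cultures, with a difference of 0.03 (SE 0.18).

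Subunits encoded in mitochondrial DNA lie outside the symbol rule and followed another order of arrays. Of 8 such genes on the array, 7 were tested, with a median difference of 0.30, and none passed the test in limma. Pair medians were 0.23, 0.61 and -0.06, so pair B was the highest where the nuclear subunits had 0.01. KO B was the highest array for 5 of the 7. With median scaling, where all tested probes of pair B shifted to a median of -0.29, the mitochondrial median stood 0.63 above it and that of the nuclear subunits 0.03 below it.

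COX2, a catalytic subunit of complex IV, read 9.74, 9.81 and 10.36 in WT and 9.99, 10.75 and 10.63 in KO, a difference of 0.49 (SE 0.27). ND1, a membrane subunit of complex I, read 11.61, 11.74 and 11.89 in WT and 11.91, 12.35 and 11.88 in KO, a difference of 0.30 (SE 0.20). ND4L differed by 0.44 (SE 0.25), with KO B at 6.58 and the other arrays at 5.52 to 5.91. ND5 was the exception, with -0.48 (SE 0.40) and a KO C value of 4.93. The striated muscle markers, 3 of 6 tested, and the endothelial markers, 4 of 5 tested, were also highest in KO B, at sums of 511 and 3915 against 68 to 98 and 1726 to 2048 in WT. Ckm, Myh4 and Tnnt3, defining muscle genes, did not pass the detection filter, and the part of these markers was not tested.

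**Figure D5:**
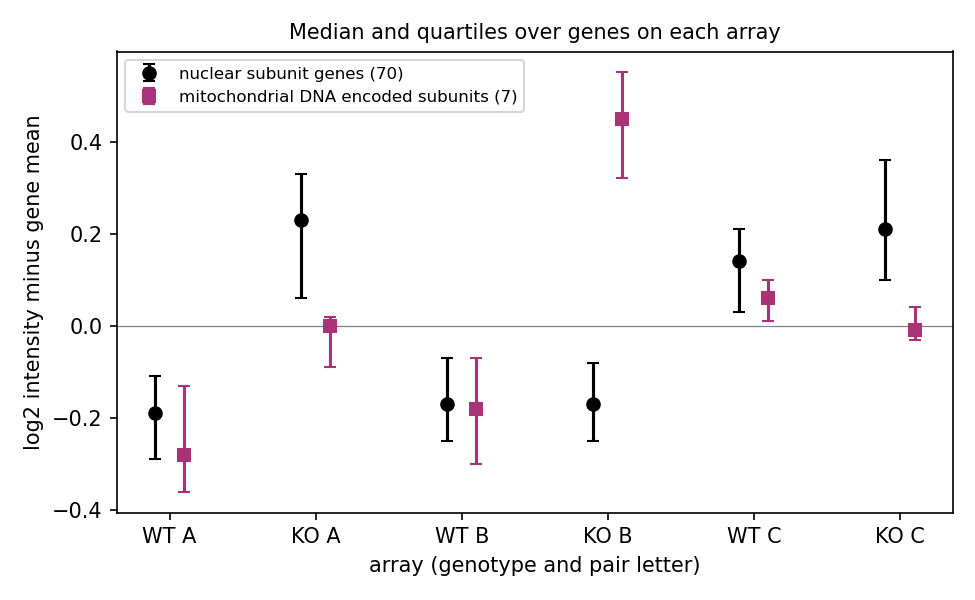
Median and quartiles over genes (vertical axis, log2 intensity minus each gene's mean over the 6 arrays) on each array (horizontal axis), for 70 nuclear subunit genes (circles) and 7 subunits encoded in mitochondrial DNA (squares). On KO B the nuclear median is -0.17 and the mitochondrial one 0.45.

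Other mitochondrial lists were set beside the subunits. Genes of the citrate cycle and pyruvate dehydrogenase had 14 of 16 positive differences and a median of 0.13, with pair medians of 0.39, -0.01 and 0.11. None passed the test, and Pcx, which makes oxaloacetate from pyruvate, had the smallest unadjusted p, with a difference of 0.43 (SE 0.19). Dld, the shared dehydrogenase subunit, and Idh2, which makes mitochondrial NADPH, differed by 0.32 (SE 0.18) and 0.56 (SE 0.44), the latter at 1.54 in pair A. Cytochrome c1, Cyc1, which belongs to complex III but not to the symbol rule, differed by 0.33 (SE 0.27), with 0.85 in pair A. Cytochrome c, Cycs, differed by -0.03 (SE 0.33).

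The mitochondrial ribosome, with 71 genes tested, had 44 positive differences and a median of 0.04. Its pair medians were 0.24, -0.13 and 0.07, so pair A was the highest here too. Mrps15, Mrpl21 and Mrpl34 differed by 0.36 (SE 0.20), 0.36 (SE 0.20) and 0.52 (SE 0.34). Assembly factors outside the rule had 18 of 31 positive differences and a median of 0.03, with pair medians of 0.26, -0.14 and -0.05. Of the 31, 4 (12.9%) were lower in KO in every pair, below the 19.3% of all probes. Those with the smallest unadjusted p, Sdhaf2, Uqcc1 and Surf1, had differences of -0.34 (SE 0.20), -0.33 (SE 0.24) and -0.25 (SE 0.20). The 16 regulators of mitochondrial genes had 6 positive differences and a median of -0.08, with pair medians of -0.11, -0.12 and 0.02. Nrf1 read 8.12, 7.99 and 8.03 in WT and 7.90, 7.93 and 7.70 in KO, a difference of -0.20 (SE 0.16), Tfam, which packages mitochondrial DNA, differed by 0.01 (SE 0.21) and Ppargc1b, a coactivator, by 0.30 (SE 0.44). Polg2 differed by -0.19 (SE 0.20), and Ppargc1a was not detected often enough to be tested.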

How the data were processed

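RNA of 6 cultures was amplified to biotinylated cRNA for Illumina bead arrays, per the labels' protocols. Per the file headers, the deposited intensity of a probe is not normalised, and its deposited detection p-value sets it against the array's control beads. The submitters' processing notes list GenomeStudio and lumi. The authors' value table is on a log2 scale and quantile normalised as its columns show, and served as an alternative. Its transform is not stated, and its ranks follow the raw arrays, so its direction is known.

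Background correction, quantile normalisation and log2 used neqc (limma 3.58.1 under R 4.3.3, offset 16). Genotypes were compared with lmFit and eBayes over 17920 probes, two-sided, with Benjamini-Hochberg adjustment and a threshold of 0.05. Probe names came from the platform annotation, which gave 34885 probes 1 symbol. Of 31 untested member probes, 21 were detected on no array, and 96 of the 104 tested were detected on all 6. Columns with no sample numbered 0. Complexes are described by counts and medians beside all probes tested.

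Members, lists and tests were chosen with earlier results of these data known. Named genes were, per complex, the 4 with the smallest unadjusted p, the brightest, the dimmest and the one with the widest pair range, plus isoforms of one subunit and 3 genes per outside list. Ndufa6, Ndufb6 and further genes named in counts or for contrast (ND5) were chosen after their values were seen. Arrays of one letter deviated together from their group means (correlations 0.352, 0.49 and 0.72 for A, B and C). Across letters, WT A with KO B gave 0.423 and WT B with KO A 0.254, while C with another letter gave -0.636 to -0.35. These values set C apart, but WT A was closer to KO B than to KO A. The fit with the pair letter as replicate block was an alternative, as were other backgrounds, scalings, filters, probe rules and omission of each array. Pair medians under other scalings were added after seeing the data. On simulated data for KO against WT over 17920 probes the test recovered 18.4% of 2-fold and 67.6% of 4-fold changes with 4.4 false calls per run, over 5 runs. The simulated noise was independent between probes and arrays. It lacked the shared deviations of these arrays, so the rates may not hold for them.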

Additional observations from a re-analysis of the deposited data

Results flagged for a closer look

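The complex IV isoforms Cox6a2 and Cox8b, both known from heart and muscle, were not tested, because they were detected on too few arrays, yet they had signal on KO arrays and were not detected in WT. Cox6a2 read 5.49 in KO B and 5.10 in KO C (log2 intensity), and 4.19 to 4.30 on the other 4 arrays, where it was not detected. Cox8b read 5.05 in KO B, and 4.24 to 4.45 elsewhere, where it was not detected. Both were singled out as signals in data left out of the test, above the WT level. Other untested member probes, of Atp5md, Atp5pb, Ndufaf5 and Ndufb10, were also detected only in KO cultures. Untested probes of Sdhb and Uqcrq were detected only in WT cultures. The share of all untested probes on the array that were detected only in KO was not counted. The summed striated muscle markers were 131 in KO A, 511 in KO B and 105 in KO C, against 68 to 98 in WT. These sums are of 3 tested markers, and neither isoform was detected in KO A. The part of these markers in the isoform values was not tested.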

How the results depend on the processing

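The subunit median kept its positive sign under every alternative run, and no member probe was called in any of them (lowest adjusted p 0.441, with array weights). The number of subunit genes higher in KO depended on the setting. It was 58 of 70 in the fit reported, 49 with median scaling, 51 without KO C and 65 with array weights or without KO B. Members at an unadjusted p under 0.05 numbered 2 in the fit reported. That was 1.92% of members beside 3.03% of all probes. They numbered 4 of 104 with pair letter as replicate block (8.08% of all probes), all higher in KO. The authors' value table gave 4 of 104 (3.28%), 3 of them higher. Without a detection filter there were 7 of 135 (3.97%), 5 of them higher. Array weights gave 18 of 104, all higher, a larger share than the 10.3% of all probes. With only the brightest probe of a gene there was 1 of 77 (3.03%), and with the mean of its probes 1 of 77 (3.16%). There were 0 of 104 with median scaling (2.84%), with trend and robust settings (2.96%) and with pairs A and B only (5.59%). Omission of each culture gave 0 to 11 of 104, while 1.38% to 6.32% of all probes passed. Both were highest without KO B, where the share of members was larger than that of all probes. Probes called over the whole array were 3, against 1 without background correction, with the authors' value table, with an offset of 50 and without a detection filter, 0 with stricter detection, 5 with array weights, and 4 with the replicate block, with median scaling and with trend and robust settings. Omission of each culture gave 1 to 2 called. Median scaling gave a pair B median of -0.32 for the nuclear subunits and 0.33 for those of mitochondrial DNA, with all probes of that pair at -0.29. In pair B, 7 of 70 nuclear subunit genes were then higher in KO, beside 37 in the fit reported. The causes were not tested. The replicate block called no member and no gene of the outside lists at an adjusted p under 0.05.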

Other observations

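Outside the subunits, Coq10b, which encodes a ubiquinone-binding protein that assists respiration, read 10.21, 9.78 and 10.17 in WT A, B and C and 9.55, 9.52 and 8.91 in KO. The groups did not overlap, and the difference of -0.73 (SE 0.24) had an unadjusted p of 0.018 and an adjusted p of 1 in limma. The 13 electron carrier genes tested had a median difference of -0.03, and Coq4, of ubiquinone synthesis, differed by -0.28 (SE 0.19). Esrrg, a nuclear receptor known for driving mitochondrial genes in heart and muscle, read 6.26, 6.37 and 5.61 in WT and 5.27, 5.80 and 5.32 in KO, lower in KO in each pair with a difference of -0.62 (SE 0.26) and overlapping groups. It did not pass the test.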
